A study of Mus musculus with 6 samples.

Results

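The nuclear-encoded subunits of the mitochondrial respiratory chain were followed in the uterus of intact female mice at 2 weeks of age. Members were all genes whose symbol in the platform annotation names a subunit of complex I (Nduf a, b, c, s or v with a number), complex II (Sdh), complex III (Uqcr and Cyc1) or complex IV (Cox4 to Cox8), taken from probe sets that carry exactly 1 symbol. This gave 101 probe sets and 54 genes, of 41420 probe sets and 16813 genes in all, and each gene was represented by its brightest probe set. By complex, 28 genes belonged to complex I, 3 to complex II, 8 to complex III and 15 to complex IV, with Ndufa4, once placed in complex I, counted in complex IV where it is now assigned. The study compared 3 Affymetrix expression arrays of the genotype Arid1a f/f, in usual notation a floxed allele on both chromosomes and so the control, with 3 of the genotype Arid1a d/d, a deleted allele on both. Arid1a is the gene of a SWI/SNF subunit, part of a complex that moves nucleosomes, and the title of the study concerns its need in endometrial gland development. The driver of the deletion, and whether each array held the uterus of 1 animal, are not given in the sources used here.

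The respiratory chain passes electrons from NADH (complex I) and succinate (complex II) to ubiquinone, from there through complex III to cytochrome c, and then through complex IV to oxygen. Complexes I, III and IV pump protons across the inner membrane while doing so, and ATP synthase uses the gradient. Most subunits are encoded in the nucleus and are made in every tissue. A few subunits of complex IV come in tissue forms, from separate genes, that are known from heart and skeletal muscle, lung or testis.

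All levels are log2 of the deposited intensity, and differences were taken as the d/d mean less the f/f mean. Values per genotype are listed in the order of arrays 1, 2 and 3. The median of an array lay between 6.34 and 6.59 on the linear scale, and arrays correlated at 0.987 to 0.995 over all probe sets. Arid1a itself measured 7.54, 7.58 and 7.71 in the f/f arrays and 6.98, 7.06 and 7.04 in the d/d arrays (log2 difference -0.58 ± 0.09 SE; limma adjusted p = 0.0260 over all genes). The genotypes did not overlap, although which part of the gene this probe set covers was not examined. Its adjusted p rose above the threshold, to at most 0.111, when any single array other than d/d 1 was dropped. The labelled tissue was checked against marker lists: 9 of 9 measured smooth muscle genes, 10 of 10 stromal genes and 10 of 10 genes of simple epithelium stood above 2.69, the median over all probe sets and arrays, in every array. Of 9 measured skeletal muscle genes 3 did, as did 3 of 8 uterine gland genes and 4 of 7 fat cell genes. Over all genes 10418 of 16813 did, so this cut separates tissues only loosely.

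Among the 54 subunits, none passed the test in either direction. With limma and Benjamini-Hochberg adjustment over all genes at 0.05, 0 subunits rose and 0 fell, where 0.630% of all genes rose and 0.512% fell. Over probe sets, 0 of 101 passed, where 0.524% of all probe sets did. At an unadjusted p under 0.05 there were 2 subunits, Ndufc2 upwards and Cox6b2 downwards, where 12.2% of all genes lay under that value. The smallest adjusted p of any subunit was 0.131, that of Cox6b2. The median log2 difference was 0.034, beside -0.011 over all genes, and the median size of a difference regardless of sign was 0.058, beside 0.0996 over all genes. In bulk tissue, fewer cells of a type and less RNA per cell cannot be told apart.

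The differences were small in size as well as short of the threshold. Of 54 subunits 41 differed by less than 0.1 on the log2 scale, 50 by less than 0.2 and 53 by less than 0.3. For 52 of the 54 the 95% interval of the difference, not adjusted for the number of genes, lay wholly within a 1.5-fold change in either direction. The exceptions were Cox6b2 and Ndufa4. A p above the threshold does not show equal levels, and the median SE of a difference was 0.12. Dim probe sets bound this further: 49 of 54 subunits lay above 2.69 in every array, Ndufb1 and Cox4i2 in only some, and Ndufb4, Cox6a2 and Cox7b2 in none.

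**Figure D1:**
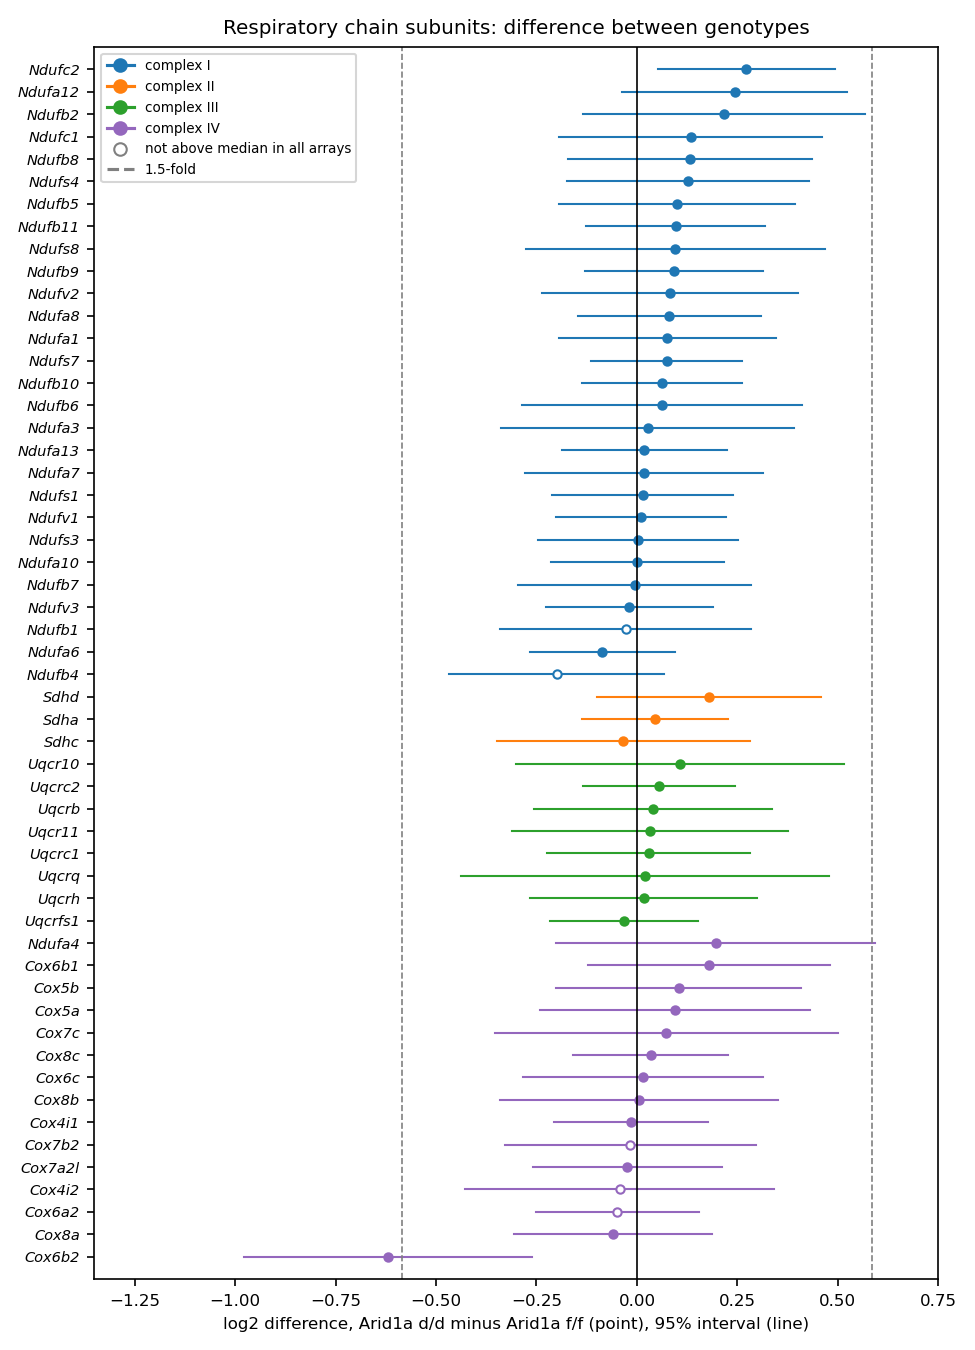
Log2 difference of each of the 54 subunits between Arid1a d/d and Arid1a f/f (points, n = 3 arrays each) with its 95% interval (lines), ordered within each complex, with broken lines at a 1.5-fold change. Points sit near 0 except Cox6b2 at -0.62, and open points mark genes that were not above the median of all probe sets in every array.

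Complex I takes electrons from NADH and is the largest of the 4. Its core subunits, which carry the flavin and the iron-sulphur clusters and have bacterial counterparts, had small differences. All 6 measured core subunits had log2 differences between 0.0025 and 0.095: Ndufs1, Ndufs3, Ndufs7, Ndufs8, Ndufv1 and Ndufv2. The 22 accessory subunits, which surround the core and serve assembly and stability, had a median of 0.069, with 17 above 0 and 5 below. Over the whole complex the median was 0.068, and 23 of 28 differences were above 0. With single arrays dropped the median ran from -0.0085, without f/f 1, to 0.14, without d/d 1.

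Ndufc2, an accessory subunit of the membrane arm, showed the largest positive value. It measured 10.51, 10.51 and 10.46 in the f/f arrays against 10.88, 10.79 and 10.62 in the d/d arrays. All d/d arrays lay above all f/f arrays, and d/d 1 was the highest, unlike in most subunits. The log2 difference was 0.27 ± 0.09 (SE; 95% interval 0.053 to 0.49; limma adjusted p = 0.287). Its second bright probe set gave 0.19, again with no overlap between genotypes. Ndufc2 was the only subunit of 54 whose d/d arrays all lay above the f/f arrays, where 7.10% of all genes did so.

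Ndufa12, an accessory subunit of the arm that reaches into the matrix, measured 9.29, 9.36 and 9.51 in f/f against 9.42, 9.80 and 9.68 in d/d. The genotypes overlapped through d/d 1, and the log2 difference was 0.24 ± 0.12 (SE; limma adjusted p = 0.493). Both of its bright probe sets carry the suffix _x_at, which marks probes that may match other transcripts. They gave 0.24 each, and the remaining probe set, below 2.69 in every array, gave -0.072. Ndufb2, of the membrane arm, stood at 8.38, 8.78 and 8.78 in f/f against 8.63, 9.03 and 8.94 in d/d (log2 difference 0.22 ± 0.15 SE; limma adjusted p = 0.661).

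At the other end of complex I, Ndufa6 had separated genotypes with a small gap. It is an accessory subunit of the LYR family, known for binding the acyl carrier protein. It measured 9.05, 9.12 and 9.04 in f/f against 8.99, 8.96 and 8.997 in d/d. The groups did not touch, yet the log2 difference was -0.087 ± 0.078 (SE; limma adjusted p = 0.754), a d/d level of 0.942 of the f/f level. Together with Cox6b2 it made 2 of 54 subunits whose d/d arrays all lay below the f/f arrays, where 9.42% of all genes did. Ndufb4 had the lowest value of the complex, -0.20 ± 0.12 (SE), but its probe set measured 1.95 in f/f and 1.75 in d/d, below 2.69. The 2 bright probe sets that match Ndufb4 also match Ndufb4b and Ndufb4c, so they fall outside the rule, and they gave 0.16 and 0.14. Ndufb1 stood at 2.96 and 2.93, close to 2.69 as well.

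Complex II, succinate dehydrogenase, joins the citric acid cycle to the chain and is the only complex encoded wholly in the nucleus. Of its 4 subunits 3 were measured under the rule. Sdha, the flavoprotein that oxidises succinate, measured 8.87, 8.89 and 8.92 in f/f against 8.98, 8.90 and 8.93 in d/d. The genotypes overlapped, and the difference was 0.045 ± 0.078 (SE). Sdhd, a membrane anchor, measured 8.06, 8.32 and 8.35 in f/f against 8.24, 8.54 and 8.49 in d/d, a log2 difference of 0.18 ± 0.12 (SE; limma adjusted p = 0.645). Its dimmer probe set gave 0.35. Sdhc, the other anchor, measured 7.45, 7.45 and 7.91 in f/f, where f/f 3 stood apart, and 7.54, 7.62 and 7.55 in d/d. Its difference of -0.034 ± 0.14 (SE) became 0.12 without f/f 3.

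Complex III passes electrons from ubiquinol to cytochrome c. Its 8 measured subunits had a median log2 difference of 0.031 and a range of -0.032 to 0.11. The median ran from -0.042 without f/f 1 to 0.12 without d/d 1, and it was below 0 without d/d 2 or d/d 3 as well. Uqcrfs1, the Rieske iron-sulphur protein, stood at 8.32, 8.32 and 8.39 in f/f against 8.26, 8.34 and 8.34 in d/d (-0.032 ± 0.079 SE). The core proteins Uqcrc1 and Uqcrc2 differed by 0.030 and 0.055, and Uqcrb, a small subunit, by 0.040. Uqcr10, also a small subunit, had the largest value, 0.11 ± 0.18 (SE; limma adjusted p = 0.882). It measured 8.25, 8.67 and 8.72 in f/f against 8.33, 8.82 and 8.81 in d/d, so that the gap between arrays of 1 genotype was several times the gap between genotypes.

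Complex IV, cytochrome c oxidase, hands the electrons to oxygen. Its 9 general subunits had a median of 0.073, with 6 above 0 and 3 below, and none passed. Ndufa4 measured 9.28, 9.69 and 9.66 in f/f against 9.41, 9.93 and 9.88 in d/d (0.20 ± 0.17 SE; limma adjusted p = 0.747), and its interval, -0.20 to 0.59, reached just past a 1.5-fold rise. Cox5b, a zinc-binding subunit, differed by 0.10 and Cox4i1, a regulatory subunit, by -0.016. Cox8a, a short membrane-spanning subunit, had the lowest value among the general forms, -0.060. Cox6c, Cox7c, Cox5a and Cox7a2l, the last a factor that joins complexes III and IV into supercomplexes, lay between -0.024 and 0.095.

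Cox6b2, the form of subunit 6b known from testis, had the largest difference in size among all 54. Its unadjusted limma p ranked 539 among 16813 genes. Cox6b2 measured 5.83, 6.29 and 6.35 in the f/f arrays against 5.37, 5.56 and 5.68 in the d/d arrays. Every d/d array lay below every f/f array, with d/d 3 and f/f 1 the closest. The means were 6.16 ± 0.28 and 5.54 ± 0.16 (SD, n = 3), a log2 difference of -0.62 ± 0.15 (SE; 95% interval -0.98 to -0.26), or a d/d level 0.651 of the f/f level. The limma adjusted p over all genes was 0.131, so it did not pass, and it rests on 1 probe set. With single arrays left out the difference ran from -0.78 to -0.52 and the adjusted p from 0.0659 to 0.383. With both arrays numbered 1 left out it was -0.70 with a limma adjusted p of 0.0239. That setting, chosen with earlier results known, called 540 of 16813 genes, beside 192 in the main fit.

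Its general counterpart had a difference of the other sign. Cox6b1, which sits on the outer face of the enzyme near the cytochrome c site, measured 9.87, 10.14 and 10.25 in f/f against 10.08, 10.36 and 10.35 in d/d. The log2 difference was 0.18 ± 0.13 (SE; limma adjusted p = 0.683), and the groups overlapped. The difference of Cox6b2 minus that of Cox6b1 was -0.80, given as a value with no test. Among the other tissue forms only Cox8b and Cox8c lay above 2.69 in every array, and these did not show such a gap. Cox4i2, known from lung and above 2.69 in only some arrays, differed by -0.043 and Cox4i1 by -0.016. Cox8b, known from heart, skeletal muscle and brown fat, differed by 0.0051 and Cox8c, known from testis, by 0.034, against -0.060 for Cox8a. Cox6a2 (-0.048) and Cox7b2 (-0.016) lay below 2.69 in all arrays, where little can be seen.

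**Figure D2:**
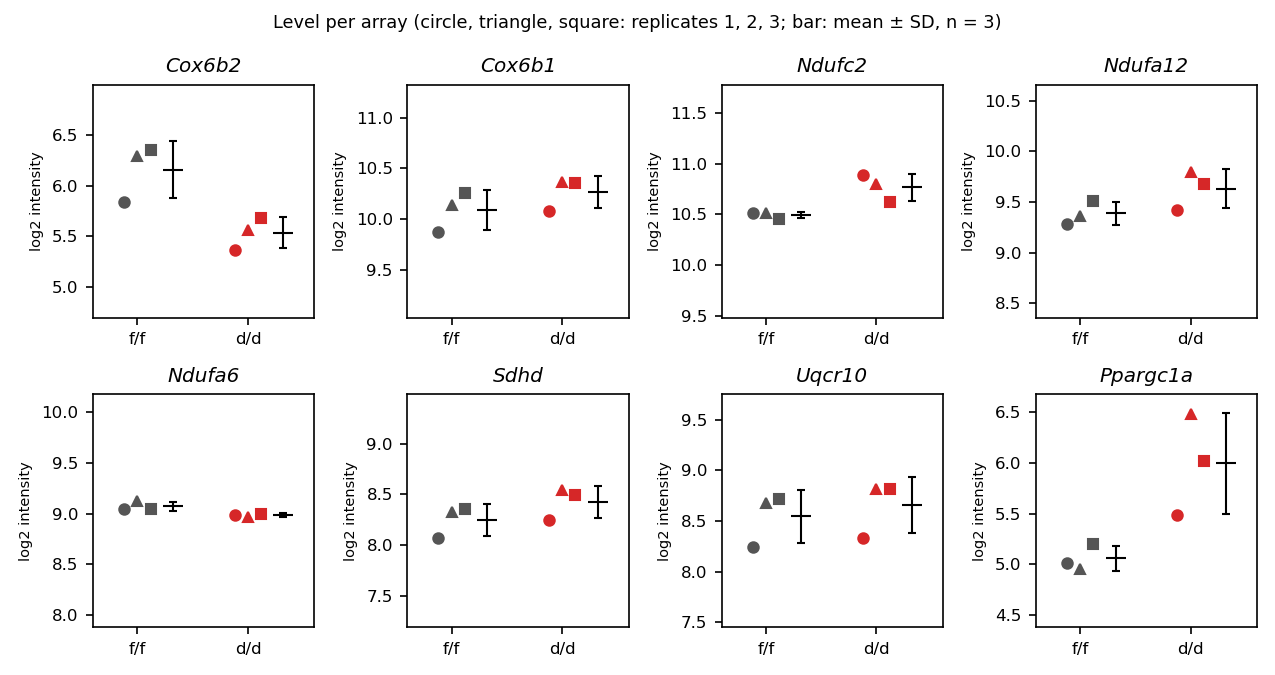
Log2 intensity per array of 7 subunits and of Ppargc1a, with circles, triangles and squares for replicates 1, 2 and 3 and bars for the mean ± SD (n = 3), on axes of the same span. Cox6b2 and Ppargc1a show separated genotypes with differences between means that are wide beside the others. Ndufc2 and Ndufa6 are separated too, and Sdhd and Uqcr10 show replicate 1 lowest in both genotypes.

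Cell type lists are given beside Cox6b2, and genes passed in 3 of those named here, simple epithelium, uterine glands and stroma. Of 10 measured genes of simple epithelium 2 rose and 0 fell, and the list's mean level was 7.42 to 7.59 in f/f arrays and 7.84 to 7.96 in d/d arrays. All 7 measured fat cell genes had negative differences, none past the threshold, with mean levels of 5.23 to 5.91 in f/f and 4.22 to 5.0 in d/d. All 6 endothelial genes were negative too, none past the threshold, with 6.34 to 6.53 against 5.60 to 6.21. The 9 smooth muscle genes, again with none past the threshold, had mean levels of 8.15 to 8.42 against 7.72 to 8.32. Of 8 measured gland genes 2 fell, Cxcl15 by 3.71 and Foxa2 by 1.41 on the log2 scale, and the list's mean level was 3.15 to 3.35 in f/f and 2.503 to 2.62 in d/d. Of 10 stromal genes 1 fell, Thy1 by 1.06, and 9 had negative differences, with mean levels of 9.91 to 10.10 in f/f and 9.59 to 9.80 in d/d. The part of these cell types in the value of Cox6b2 was not tested.

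As Cox6b2 had the largest difference and Cox6b1 is its general form, the RefSeq promoter windows of both genes are shown, each from 250 bases before to 50 after the annotated start (GRCm38.p6). Capitals mark a match to the core of the GABP motif, CCGGAAG, on either strand. GABP is an ETS factor known for activating respiratory chain genes. Cox6b1 lies on the minus strand at chr7:30626065-30626364 and Cox6b2 on the minus strand at chr7:4753045-4753344.

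Cox6b1: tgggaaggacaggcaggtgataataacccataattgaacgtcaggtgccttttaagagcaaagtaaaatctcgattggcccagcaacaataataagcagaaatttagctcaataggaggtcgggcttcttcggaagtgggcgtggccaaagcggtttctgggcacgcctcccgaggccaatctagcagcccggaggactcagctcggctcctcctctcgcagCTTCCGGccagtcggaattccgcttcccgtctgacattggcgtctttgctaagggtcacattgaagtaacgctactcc
Cox6b2: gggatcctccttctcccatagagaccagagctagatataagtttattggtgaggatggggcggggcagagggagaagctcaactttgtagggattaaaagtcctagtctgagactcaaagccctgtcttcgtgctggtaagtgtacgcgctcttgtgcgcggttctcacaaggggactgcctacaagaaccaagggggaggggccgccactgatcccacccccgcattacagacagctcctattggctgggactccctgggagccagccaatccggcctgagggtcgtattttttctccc

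The Cox6b1 window holds 1 such match, and the Cox6b2 window holds none of the 3 motifs searched. Most general subunits of complex IV resemble Cox6b2 in this, as only 2 of their 7 windows hold any of the motifs. The letters shown say nothing about binding in these uteri.

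Promoter windows were available for 43 of the 54 subunits, 44 windows in all. Besides the GABP core, the motif of NRF-1, another activator of respiratory genes, was searched as GCGC, any base, then TGCGC, and that of YY1, a zinc finger factor that also acts on mitochondrial genes, as AANATGGC, each on both strands and with overlaps allowed. At least 1 of the 3 was found in 23 of 44 windows (52.3%), where 17.4% of all 32851 windows of this length had one. YY1 matches were found in 10 of 27 windows of complex I (37.0%) and in 0 of the 17 other windows, against 6.05% of all windows. GABP matches were found in 9 of 44 (20.5%, against 8.86%) and NRF-1 matches in 6 of 44 (13.6%, against 4.60%). The 3 windows of complex IV tissue forms, Cox6b2, Cox7b2 and Cox8b, held none. With so few windows, and with 17.4% of all windows holding one, this does not set the tissue forms apart.

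Windows of a complex I core subunit and of a complex II anchor show how the matches lie, with capitals on every match to the 3 motifs. Ndufs8 lies on the minus strand at chr19:3912725-3913024 and holds a GABP and a YY1 match, and Sdhd lies on the minus strand at chr9:50603800-50604099 and holds a GABP and an NRF-1 match.

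Ndufs8: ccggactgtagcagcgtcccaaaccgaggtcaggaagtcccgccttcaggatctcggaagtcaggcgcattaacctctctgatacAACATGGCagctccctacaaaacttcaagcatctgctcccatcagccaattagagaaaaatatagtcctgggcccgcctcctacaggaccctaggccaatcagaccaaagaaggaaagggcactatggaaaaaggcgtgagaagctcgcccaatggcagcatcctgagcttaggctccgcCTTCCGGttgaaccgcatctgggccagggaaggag
Sdhd: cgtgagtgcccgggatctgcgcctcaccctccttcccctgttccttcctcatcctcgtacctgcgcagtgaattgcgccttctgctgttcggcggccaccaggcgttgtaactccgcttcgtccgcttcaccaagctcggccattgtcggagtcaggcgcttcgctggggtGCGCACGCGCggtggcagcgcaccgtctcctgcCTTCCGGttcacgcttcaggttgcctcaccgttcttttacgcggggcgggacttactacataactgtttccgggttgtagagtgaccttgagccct

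Ndufs8 differed by 0.095 ± 0.16 (SE) and Sdhd by 0.18 ± 0.12 (SE) between the genotypes, both short of the threshold.

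Ranges between arrays of 1 genotype were typically wider than differences between genotypes, as they were over all genes. In 46 of the 54 subunits the range within f/f and the range within d/d both exceeded the difference between the genotypes. A range of 3 single values tends to exceed a difference between means of 3, so little follows from this count. The typical range was 0.26 among f/f arrays and 0.30 among d/d arrays (medians over the subunits). Over all genes it was 0.24 in each genotype, beside a median size of a difference of 0.0996. Array f/f 1 was the lowest of the f/f arrays in 43 of 54 subunits (79.6%), and d/d 1 the lowest of the d/d arrays in 41 (75.9%). Both held in 36 (66.7%), beside 19.7% of all genes and 29.8% of the 1136 genes with a mean above 8. Other mitochondrial lists had like shares: 66.2% for the mitochondrial ribosome, 60% for ATP synthase and for import and carriers, 57.9% for assembly factors and 57.1% for the citric acid cycle. The share was 88.2% in the cell cycle list and 20% among hypoxia-responsive genes, and regulators of mitochondrial biogenesis had a lower one still. The order was thus not particular to the subunits. The subunits share the same 6 arrays, so these counts describe the arrays and are not 54 independent observations.

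Small subunits of complex III showed this most evenly. All 5, Uqcrb, Uqcrh, Uqcrq, Uqcr10 and Uqcr11, were lowest in f/f 1 and in d/d 1 within their genotypes. Uqcrq, which helps hold the ubiquinone-binding part of the complex, measured 7.43, 7.81 and 8.03 in the f/f arrays against 7.41, 7.97 and 7.94 in the d/d arrays. Arrays 2 and 3 averaged 0.49 above array 1 in f/f and 0.54 in d/d, while the difference between genotypes was 0.020 ± 0.20 (SE). Not every subunit had this order: Ndufc2, Ndufs1, Sdha, Cox6a2, Cox7b2, Cox8a and Cox8b were highest in d/d 1 among the d/d arrays. Uqcrc2, a core protein of complex III, was highest in f/f 1 among the f/f arrays, at 9.03, 8.94 and 8.97 in f/f against 9.01, 9.10 and 8.99 in d/d.

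**Figure D3:**
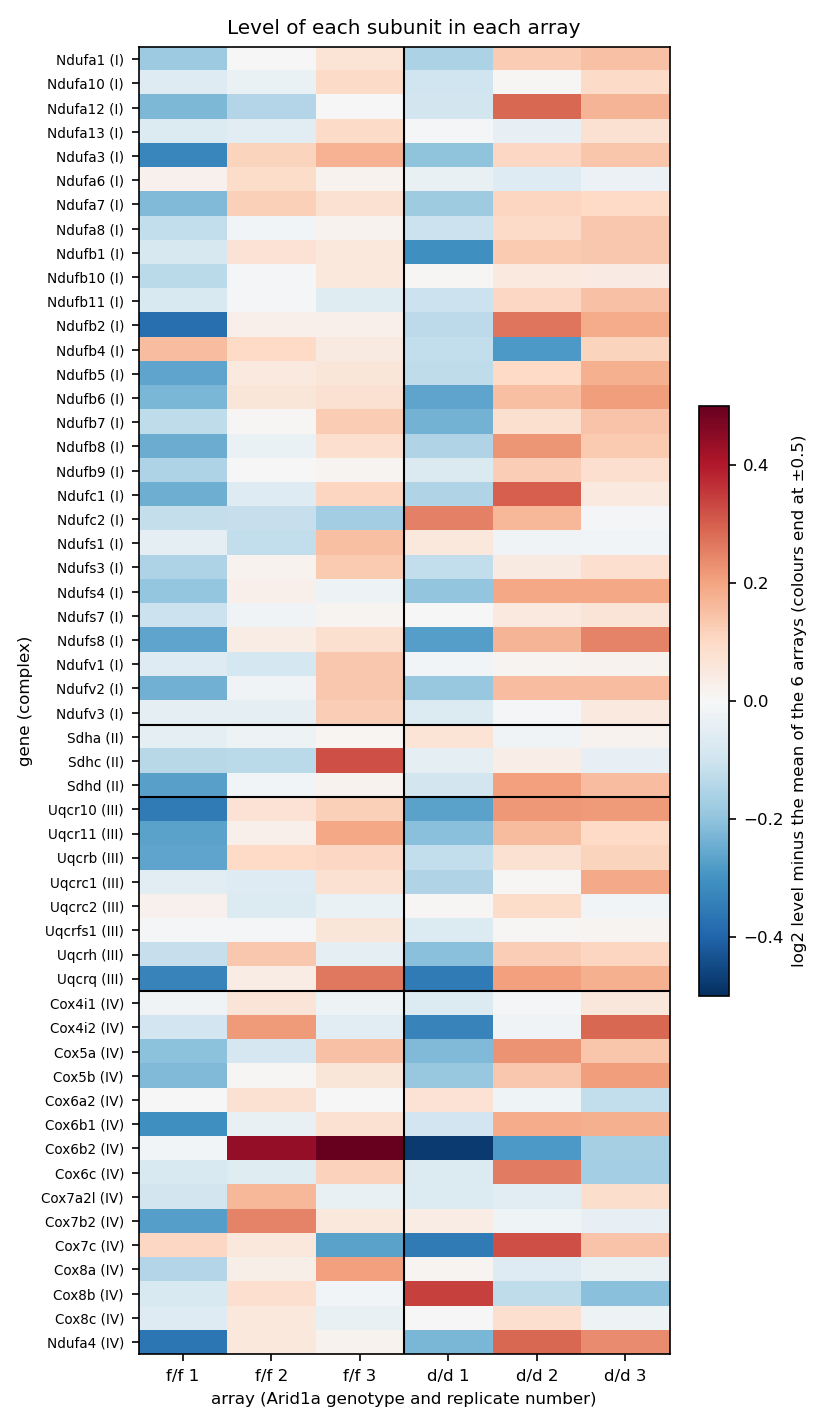
Level of each of the 54 subunits in each of the 6 arrays, as log2 intensity minus the gene's mean over the arrays (blue lower, red higher, colours ending at ±0.5), grouped by complex. Columns f/f 1 and d/d 1 are mostly blue, and the row of Cox6b2 is red in f/f 2 and 3 and blue in d/d.

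The mean over all 54 subunits was 8.02, 8.19 and 8.23 in the f/f arrays against 8.05, 8.25 and 8.25 in the d/d arrays. The genotypes overlapped, f/f 1 and d/d 1 lay below the other arrays, and d/d 2 was nearer to f/f 3 than to f/f 2. By complex the means were 8.32, 8.47 and 8.53 against 8.36, 8.57 and 8.58 for complex I, and 8.97, 9.17 and 9.23 against 8.97, 9.25 and 9.25 for complex III. Within each number, the median subunit differed by 0.046 between d/d 1 and f/f 1, by 0.081 between d/d 2 and f/f 2 and by 0.022 between d/d 3 and f/f 3.

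The cell cycle list went along with this order. Its 17 measured genes had mean levels of 5.22, 5.39 and 6.18 in the f/f arrays against 4.85, 6.55 and 6.34 in the d/d arrays, and none passed between the genotypes. All 17 were lowest in d/d 1 among the d/d arrays and 15 were lowest in f/f 1 among the f/f arrays. Over all genes the mean stayed between 4.38 and 4.41 in every array. The part of cell cycle genes in the levels of the subunits was not tested.

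**Figure D4:**
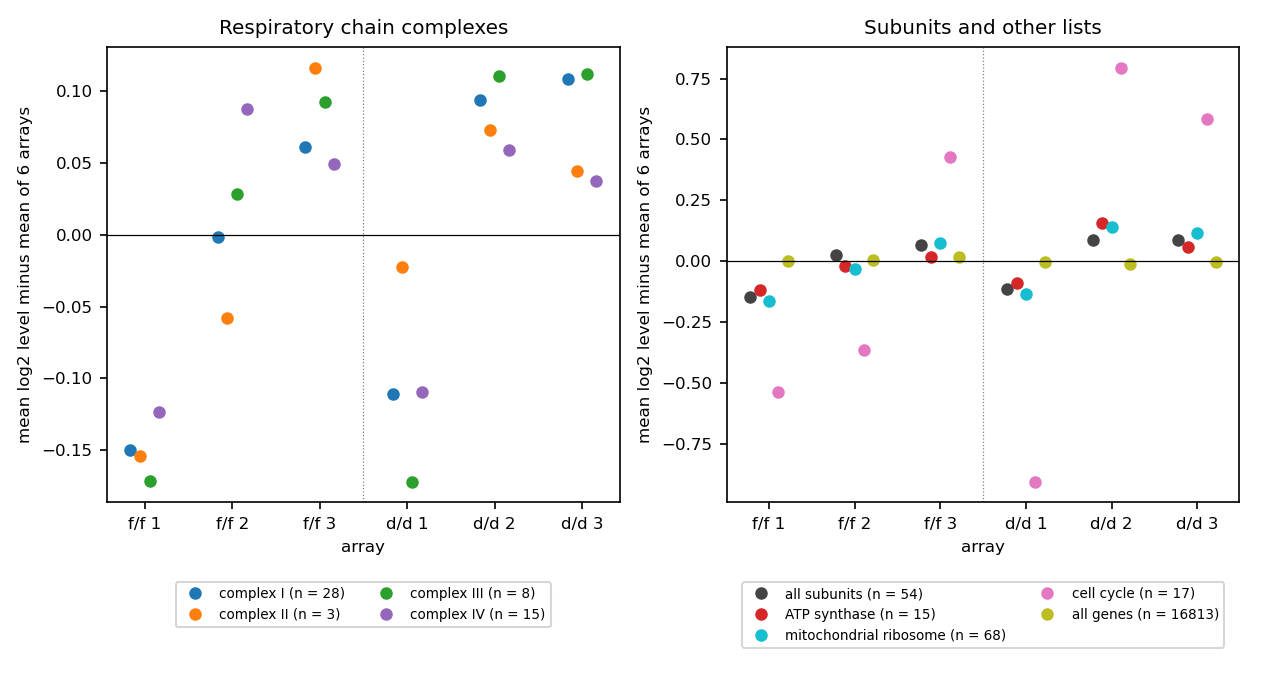
Mean log2 level per array of each respiratory chain complex (left) and of all subunits beside ATP synthase, mitochondrial ribosome, cell cycle and all genes (right), each minus its own mean over the 6 arrays. Arrays f/f 1 and d/d 1 lie below 0 for every complex and for each of the lists, while all genes stay near 0.

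The direction of the small differences turned when f/f 1 alone was dropped. Differences were above 0 in 40 of 54 subunits (74.1%), beside 46.6% of all genes and 52.8% of genes with a mean above 8. The share was 79.4% for the mitochondrial ribosome, 80% for ATP synthase and 78.9% for assembly factors. It was 65% for import and carriers and 57.1% for the citric acid cycle. Without f/f 1 the differences of the subunits were above 0 in 22 of 54, and the median over the subunits turned from 0.034 to -0.019. Without d/d 1 they were above 0 in 44, with a median of 0.11. The median was 0.075 when f/f 2 was dropped and 0.090 when f/f 3 was, and it was 0.010 after dropping d/d 2 and 0.013 after dropping d/d 3. With both arrays numbered 1 left out, differences were above 0 in 37 of 54 with a median of 0.050. No subunit passed the test in the 6 fits without a single array.

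Where a gene had more than 1 usable probe set, these mostly gave like values. Of 23 genes with at least 2 probe sets above 2.69 in all arrays, 16 had log2 differences within 0.1 of each other, and the median spread was 0.065. The 6 probe sets of Ndufs8, an iron-sulphur subunit near the ubiquinone site, ranged from 0.068 to 0.10. The widest spread was 0.33 for Ndufb2, between 0.22 and -0.12, the latter from a probe set with mean levels of 3.18 and 3.07. A brightest probe set with the suffix _x_at stood for 9 subunits. Processed pseudogenes of such genes are common, so signal from near-identical copies cannot be told apart there.

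None of the other mitochondrial genes listed here passed either. The median size of a difference regardless of sign was 0.12 for ATP synthase and for assembly factors and 0.10 for the mitochondrial ribosome. It was 0.087 for import and 0.068 for the citric acid cycle, against 0.058 for the subunits. Of 15 measured ATP synthase genes 0 rose and 0 fell (limma; 1 at an unadjusted p under 0.05; median 0.093), with Atp5md, a small membrane subunit, at 0.38 ± 0.14 (SE; limma adjusted p = 0.347). Of 38 assembly factors of the chain 0 passed (2 at an unadjusted p under 0.05; median 0.098). Acad9, which acts in complex I assembly, had 0.31 ± 0.10 (SE; limma adjusted p = 0.260), and Cox11, which delivers copper to complex IV, 0.22 ± 0.08. None of 14 citric acid cycle genes passed (median 0.014), and none of 20 genes of mitochondrial import and carriers (median 0.046), with Tomm20, an import receptor, at 0.20. The 68 proteins of the mitochondrial ribosome, added after values had been seen, had a median of 0.098 with 0 past the threshold and 1 at an unadjusted p under 0.05. Of the list of 13 subunits encoded in mitochondrial DNA, none was analysed here.

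Genes next to the chain but outside the rule went both ways, with 7 of 12 differences above 0. Of 12 measured carriers and related genes 0 passed by limma and 3 had an unadjusted p under 0.05, with a median difference of 0.011. Those 3 were negative, while Cycs, the gene of cytochrome c, stood at 0.19 ± 0.19 (SE; limma adjusted p = 0.791). Ndufa4l2, a paralogue of Ndufa4 known to respond to low oxygen, measured 4.72, 4.80 and 4.78 in f/f against 4.43, 4.21 and 4.48 in d/d (-0.39 ± 0.10 SE; limma adjusted p = 0.128). Every d/d array was below every f/f array, while Ndufa4 itself was at 0.20. Coq10b and Coq10a, which bind ubiquinone, had -0.32 ± 0.10 and -0.27 ± 0.09 (SE), with adjusted p-values of 0.249 and 0.270 by limma. Of 15 measured hypoxia-responsive genes 0 passed by limma (2 at an unadjusted p under 0.05), with Pdk1, a kinase that restrains pyruvate dehydrogenase, at 0.40 and Epas1, an oxygen-regulated transcription factor, at -0.58 (median 0.065).

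Regulators of mitochondrial biogenesis included wider differences than the subunits. Of 23 measured, 0 passed by limma and 5 had an unadjusted p under 0.05, and the median difference was 0.0011. Ppargc1a, the coactivator PGC-1 alpha that drives respiratory genes in muscle and brown fat, measured 5.01, 4.96 and 5.20 in f/f against 5.49, 6.49 and 6.02 in d/d. All d/d arrays were above all f/f arrays, and the log2 difference was 0.94 ± 0.23 (SE; limma adjusted p = 0.121). Its 5 probe sets gave 0.35 to 1.05. Without d/d 1 the difference was 1.20 with an adjusted p of 0.00568, and without any other single array it did not pass. It also passed with array weights (1.06, adjusted p = 0.0434) and with both arrays numbered 1 left out (1.17, adjusted p = 0.0197). Each setting in which it passed drops d/d 1, its lowest d/d array, or gives that array the lowest weight. They are therefore not separate checks. Calls over all genes rose as well, to 821 without d/d 1, 381 with weights and 540 without both arrays numbered 1, beside 192 in the main fit.

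Ppard, a nuclear receptor of fatty acid use, had -0.40 ± 0.09 (SE; limma adjusted p = 0.0940), at 3.56, 3.42 and 3.39 in f/f against 3.10, 3.09 and 2.98 in d/d. Tfb1m, which modifies mitochondrial ribosomal RNA, had 0.44 ± 0.12 and Ssbp1, which coats single-stranded mitochondrial DNA, 0.27 ± 0.11 (SE; limma adjusted p of 0.178 and 0.367). Of the genes of the 3 factors whose motifs were searched, Nrf1 had 0.096 ± 0.14 and Gabpa -0.0008 ± 0.14 (SE), both with overlapping genotypes. Yy1 measured 8.19, 7.98 and 8.14 in f/f against 8.26, 8.48 and 8.21 in d/d, with every d/d array above every f/f array (0.21 ± 0.11 SE; limma adjusted p = 0.494). Among 5 measured brown fat genes 0 passed. Prdm16, a transcriptional regulator known from brown fat, had 0.79 ± 0.15 (SE; limma adjusted p = 0.0610), and Ppargc1a belongs to that list too. The others were Dio2, which activates thyroid hormone, at 0.11 ± 0.24 (SE), and Elovl3 and Otop1, at -0.11 and -0.019, both below 2.69 in every array.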

How the data were processed

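Uterine RNA of 6 mouse samples, 3 per genotype, was measured on Affymetrix arrays, from 500 ng of total RNA per array. The deposited table gives 1 linear intensity per probe set and array. RMA is named in the submitters' processing notes, with no version or settings. RMA compresses small differences near background. No column of values was left out (0 unused).

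Log2 was taken with no constant. Of 41420 probe sets, 31562 carry 1 symbol, 830 several and 9028 none. The test was limma's moderated linear model (version 3.58.1, R 4.3.3, 2-sided, no covariate, 4 residual degrees of freedom), with Benjamini-Hochberg adjustment over all genes or all probe sets at 0.05. The number of arrays limits the precision. Nothing states that arrays came from separate animals, so the spread behind each p-value may be technical. The steps were tested on simulated data.

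Members, lists and the naming rule were chosen with earlier results of these data known. The rule named, per complex, the 3 largest and 3 smallest differences, all members of complex II, members without overlap, tissue forms with their general forms, Arid1a and up to 4 genes of smallest p per list. Other genes are named after their values were seen. Of 292 list entries in 19 lists, 231 were measured. Tried as alternatives were array weights, a variance trend on intensity with robust fitting, the replicate number as a block, repeated quantile normalization, median centring, log2(value + 1), filters on probe sets under the 40th percentile and on _x_at, the mean of all probe sets, each array left out in turn, both arrays numbered 1 left out (known from earlier results), and an adjusted p under 0.10. Symbols came from the platform annotation and promoter windows from RefSeq (GRCm38.p6).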

Additional observations from a re-analysis of the deposited data

How the results depend on the processing

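No subunit rose past the threshold under any alternative. In the downward direction the count was 0 except under a pair of settings. It was 1 gene and 1 probe set with the replicate number as a block (replicate block, Cox6b2, limma adjusted p = 0.0273). It was 1 gene, Cox6b2 again, and 1 probe set without both arrays numbered 1. Over all genes these settings made 457 and 540 calls, beside 192 in the main fit. The block changed no other call among the subunits. Arrays 1, 2 and 3 of the genotypes deviated from their group means with correlations of 0.545, 0.0195 and 0.307, and with 1 of these under 0.1 the numbers were not taken as pairs. The cause was not tested. With single arrays left out the count stayed at 0 in both directions, over genes and over probe sets, and the median over the subunits ran from -0.019 to 0.11, with Arid1a from -0.62 to -0.53. Across the 27 single genes followed besides Arid1a, 393 of 428 values kept direction and call, 5 gained a call (Cox6b2 in 2, Ppargc1a in 3), and 30 changed sign, none of these past the threshold. None of the 27 had a call to lose, and Arid1a lost its call in 5 settings. Of the signs that changed, array weights gave 0.028 for Cox4i2, -0.077 for Cox8b and 0.036 for Ndufb1. Without both arrays numbered 1 Cox4i1 stood at 0.0034, Cox4i2 at 0.054, Cox8b at -0.20, Ndufb1 at 0.071 and Uqcrb at -0.010. Repeated quantile normalization gave -0.0014 for Cox8b. Averaging all probe sets of a gene put Cox8c at -0.060 and Sdha at -0.0098, and without _x_at Ndufa12 stood at -0.072, on its remaining dim probe set. With single arrays left out the ranges of genes that changed sign were -0.049 to 0.015 for Cox4i1, -0.20 to 0.11 for Cox4i2, -0.097 to 0.00030 for Cox6a2, -0.16 to 0.10 for Cox7b2, -0.15 to 0.027 for Cox8a, -0.16 to 0.11 for Cox8b, -0.10 to 0.12 for Ndufb1, -0.11 to 0.12 for Sdhc, -0.042 to 0.27 for Uqcr10 and -0.082 to 0.11 for Uqcrb. Genes below 2.69 are limited by background.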
